A study of Mus musculus with 4 samples.

Results

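The genes described here were 10 genes of the oxidative stress defence of the cell: Nfe2l2, Keap1, Nqo1, Hmox1, Gclc, Gclm, Slc7a11, Txnrd1, Srxn1 and Gpx4. They were taken by name, a choice made with earlier results of these data known, and each matched 1 row of a table of 55487 genes. The table gave the transcript level of every gene in TPM, a unit for the abundance of transcripts that brings each library to about the same total and divides each level by transcript length. Of the 10 genes, 7 reached 10 TPM in at least 1 library, as did 9314 genes of the whole table. Nqo1, Slc7a11 and Srxn1 stayed below 10 TPM in all 4 libraries.

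The libraries came from mouse neural stem cells, which were taken from the embryonic neocortex and grown as floating neurospheres with the growth factors bFGF and EGF. Lipid nanoparticles (LNP) delivered Cre mRNA to cells with floxed alleles, and the cells were collected after 3 days. The control carried the floxed Tut1 allele (Tut1f/f) and received empty nanoparticles, the Tut1 KO library came from Tut1f/f cells given Cre-LNP, the Trp53 KO library from p53f/f cells given Cre-LNP, and the double KO library from Tut1f/f;p53f/f cells given Cre-LNP. Tut1 encodes a terminal uridylyltransferase that acts on U6 snRNA, and Trp53 encodes the tumour suppressor p53. Each group had 1 library, so no difference below has a replicate check, an error or a test, and the control differed from every other library in Cre treatment as well as in genotype.

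Nfe2l2 encodes Nrf2, the transcription factor that binds antioxidant response elements in the promoters of defence genes. In unstressed cells Keap1 holds Nrf2 and hands it to a ubiquitin ligase for destruction, and oxidants or electrophiles modify Keap1 and let Nrf2 accumulate, so much of its control lies in protein stability rather than in transcript level. Its targets include both subunits of the ligase that makes the precursor of glutathione, the cystine carrier, thioredoxin reductase, sulfiredoxin, haem oxygenase and a quinone reductase. Gpx4 uses glutathione to reduce lipid peroxides and is the central guard against ferroptosis, a form of cell death driven by those peroxides.

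The promoters of the genes are shown because the antioxidant response element is what several of them are known to share. The letters TGACNNNGC, the core of that element, were searched on both strands in windows of 300 bases, 250 before and 50 after each start site, from RefSeq on GRCm38.p6. Of the 10 genes, 8 matched an entry, with 13 windows among them, and 4 of these genes held the letters in a window. The same letters stood in 12.4% of all 32851 windows and in at least 1 window of 3781 of 27025 genes. The 4 windows are printed 5′ to 3′ on the strand of the gene, with the match in capitals.

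Nfe2l2, chr2:75704614-75704913, minus strand: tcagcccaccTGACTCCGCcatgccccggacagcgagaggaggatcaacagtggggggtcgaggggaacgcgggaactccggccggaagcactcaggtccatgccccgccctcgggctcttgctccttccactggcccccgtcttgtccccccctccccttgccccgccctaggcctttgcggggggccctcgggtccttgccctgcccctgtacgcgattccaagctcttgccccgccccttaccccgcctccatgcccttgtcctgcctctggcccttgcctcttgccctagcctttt
Gclm, chr3:122245307-122245606, plus strand: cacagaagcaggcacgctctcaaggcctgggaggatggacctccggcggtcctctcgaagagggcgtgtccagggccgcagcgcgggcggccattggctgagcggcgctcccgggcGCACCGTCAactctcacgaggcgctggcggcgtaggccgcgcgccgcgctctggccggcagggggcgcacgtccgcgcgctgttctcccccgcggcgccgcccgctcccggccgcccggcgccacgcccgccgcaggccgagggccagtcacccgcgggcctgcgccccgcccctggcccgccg
Txnrd1, chr10:82858956-82859255, plus strand: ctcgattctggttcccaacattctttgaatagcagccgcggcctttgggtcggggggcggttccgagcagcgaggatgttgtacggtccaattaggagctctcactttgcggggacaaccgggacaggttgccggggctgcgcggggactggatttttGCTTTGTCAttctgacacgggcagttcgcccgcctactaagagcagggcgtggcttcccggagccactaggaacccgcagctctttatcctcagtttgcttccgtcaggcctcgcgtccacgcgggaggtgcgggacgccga
Srxn1, chr2:152105274-152105573, plus strand: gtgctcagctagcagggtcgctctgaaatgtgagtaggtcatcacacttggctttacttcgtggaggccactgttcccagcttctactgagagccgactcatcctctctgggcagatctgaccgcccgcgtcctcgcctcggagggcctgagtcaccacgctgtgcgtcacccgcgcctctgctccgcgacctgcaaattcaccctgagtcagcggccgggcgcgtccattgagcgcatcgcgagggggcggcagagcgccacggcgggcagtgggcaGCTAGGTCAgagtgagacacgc

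In the Nfe2l2 window the match, TGACTCCGC, ran in the direction of the gene and began 240 bases before the start site. In Gclm it lay on the opposite strand, where it reads TGACGGTGC, and its first printed base was 134 bases before the start. The Txnrd1 match also lay on the opposite strand, reads TGACAAAGC there and began 92 bases before the start of that window. Txnrd1 had 3 windows, and the printed one belongs to an internal start. The window at the outermost start of the gene and the remaining one did not hold the letters. The Srxn1 match, TGACCTAGC on the opposite strand, fell after the start site, at base 29 of the transcript. These matches describe the letters in these windows and were not tested as binding sites.

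Several facts of the 4 libraries bear on the values below. Trp53 stood at 120 and 100.4 TPM in the control and Tut1 KO libraries and at 39.7 and 41.9 TPM in the Trp53 KO and double KO libraries. Tut1 stood at 12.2 TPM in the control, 29.8 in Tut1 KO, 12.5 in Trp53 KO and 13.7 in double KO, so it was not lower where its deletion was labelled, and Tut1 KO below means the library labelled Tut1 KO. The table gives 1 value per gene and does not show whether the floxed exon was lost. The Xist transcript was at 188 TPM in Tut1 KO and 204 TPM in Trp53 KO and near 0 in the other pair, which in turn had the Y-linked transcripts Ddx3y, Eif2s3y, Kdm5d and Uty. The deviation of each library from the median of the others was set against transcript GC content across 8469 protein-coding genes. It rose with GC content in Tut1 KO (Spearman's rho 0.448), against 0.0668 in Trp53 KO, -0.216 in the control and -0.288 in double KO. This is a description over genes that are not independent. All 10 neural stem cell markers listed were at 1 TPM or above in at least 1 library, with a summed level of 10765 to 12650 TPM. Of 10 neuronal markers 7 were, summing to 174 to 248 TPM, and oligodendrocyte lineage markers summed to 1559 to 1759 TPM. Of 10 microglial markers Cd68 alone reached 1 TPM, and no endothelial marker of 8 did.

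The level of the 10 genes spanned from 0.828 TPM, for Slc7a11, to 228 TPM, for Gpx4, as the plot of each gene in each library shows. Gpx4 was highest in every library and Slc7a11 lowest. Gpx4 and Txnrd1 together made up 60.2% of the summed TPM of the 10 genes in the control, 63.2% in Tut1 KO, 62.2% in Trp53 KO and 62.3% in double KO. Values without a library name follow that library order here and below. The sum itself was 549, 514, 542 and 528 TPM, so its highest and lowest libraries were close. For 9 of the 10 genes the highest library stood less than 3-fold above the lowest, and the exception was Gclm at 3.38-fold.

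**Figure D1:**
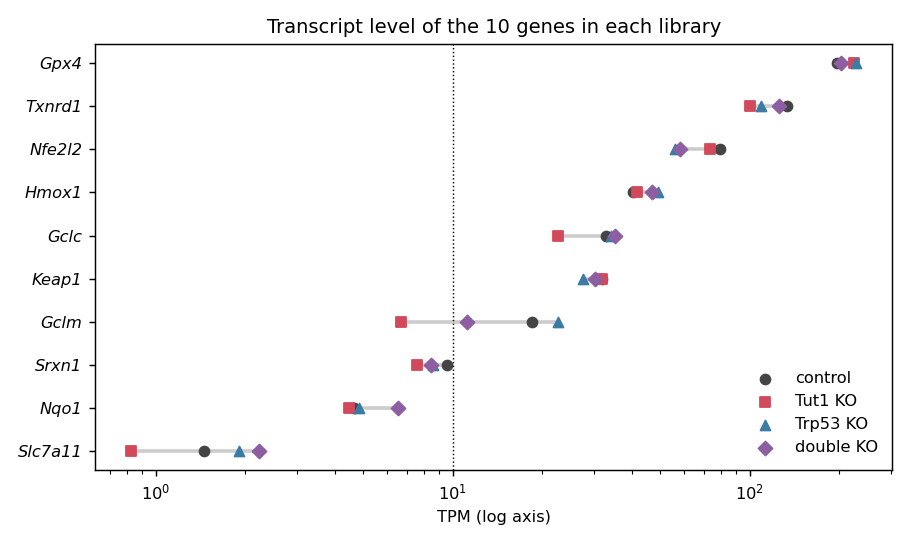
The transcript level in TPM, on a log axis, of the 10 genes in each of the 4 libraries, with 1 point per library, a grey bar from the lowest to the highest and a dotted line at 10 TPM. Gclm has the widest bar, from 6.70 TPM in Tut1 KO to 22.7 TPM in Trp53 KO, and Gpx4 and Keap1 have the narrowest, each 1.16-fold.

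Comparisons were made as differences of log2(TPM + 1), the first-named library less the second, for genes at 10 TPM or above in at least 1 of the 2 libraries compared, and a difference of at least 1 in size is called below. Adding 1 to each value shrinks the difference of low genes. The Tut1 label was compared in Tut1 KO against control and in double KO against Trp53 KO, and the Trp53 label in Trp53 KO against control and in double KO against Tut1 KO. The pair of comparisons for one label shares no library, but comparisons for different labels do. Each of these comparisons also set a library with Xist against a library with Y-linked transcripts. The library with Xist was named first in the comparisons with the control and second in those of double KO. The part of that division in the differences of any gene below was not tested. Over all genes, Tut1 KO against control called 1.48% higher and 2.61% lower, and double KO against Trp53 KO called 1.41% and 1.79%. For the Trp53 label Trp53 KO against control called 1.92% higher and 1.91% lower, and double KO against Tut1 KO called 2.13% and 1.77%.

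Of the 10 genes, 7 could be called in each comparison, since Nqo1, Slc7a11 and Srxn1 were below 10 TPM. Beside the shares above, 1 call was made among these 7 in the 4 comparisons: Gclm was lower in Tut1 KO than in the control. No member was called in double KO against Trp53 KO or in either comparison of the Trp53 label. The widest difference of any member between 2 libraries was that of Gclm between Trp53 KO and Tut1 KO, at 1.62, where 1.10% of genes were as high. Fewer cells of a type and less RNA per cell cannot be told apart in such bulk libraries.

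**Figure D2:**
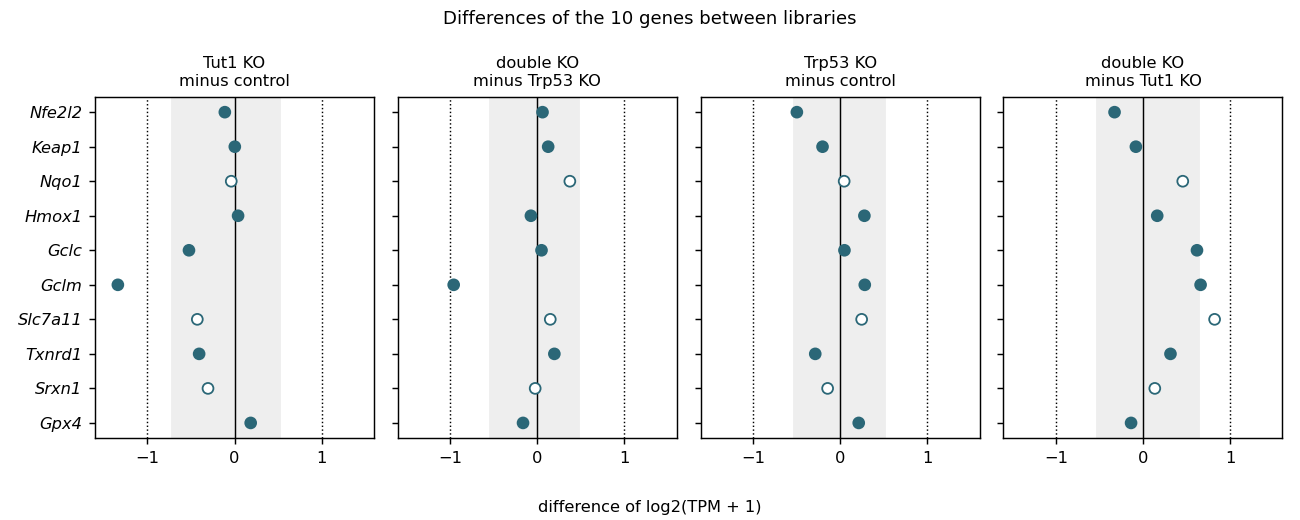
Differences of log2(TPM + 1) for the 10 genes in the 4 comparisons, with dotted lines at the call threshold of 1 either way, grey bands over the middle 90% of all genes compared, and open points for genes below 10 TPM in all libraries. Gclm lies below the band in both comparisons of the Tut1 label, at -1.34 and -0.96, and in double KO against Tut1 KO Slc7a11 lies above it at 0.82 and Gclm just past its upper edge at 0.66.

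Gclm (ENSMUSG00000028124, chr3:122245557-122270732, plus strand on GRCm38) encodes the modifier subunit of glutamate-cysteine ligase, which lowers the need of the enzyme for glutamate and eases its inhibition by glutathione. Its level was 18.5 TPM in the control, 6.70 in Tut1 KO, 22.7 in Trp53 KO and 11.2 in double KO. Both libraries with the Tut1 label were thus below both without it. The difference was -1.34 in Tut1 KO against control, where 1.63% of genes were as low or lower, and -0.96 in double KO against Trp53 KO, where 1.92% were. Of 9314 genes, 26, with Gclm counted, were at least as low as Gclm in both comparisons, a share of 0.279%. The gap between its lower and higher pair of libraries was 0.68 on the log2 scale. With Gclm counted, 50 genes, 0.537%, had a gap of that size or more in the same direction.

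The transcript of Gclm is poor in G and C, at 42.1%, which is percentile 12.5 of the protein-coding genes, and the Tut1 KO library stood low for such genes. With the trend on GC content and transcript length removed, the differences for the Tut1 label were -1.05 and -1.04. Gclm also shares exon sequence with the annotated gene Gm6061, which was at 0 to 0.153 TPM, and with both summed the differences were -1.32 and -0.94. The 10 neuronal markers summed to 248, 174, 218 and 224 TPM in library order, lowest in Tut1 KO, as Gclm was, but higher in double KO than in Trp53 KO, where Gclm was lower. Map2 made up most of that sum, at 208 TPM in the control, 141 in Tut1 KO, 181 in Trp53 KO and 191 in double KO. Snap25, in the same list, was lower in both comparisons of the Tut1 label, at -1.28 and -0.71, as Gclm was. Snap25 was below 10 TPM in both libraries of the former comparison. In Tut1 KO against control the other neuronal markers above 1 TPM differed less. Map2 differed by -0.56, Rbfox3 by -0.24, Tubb3 by -0.06, Syt1 by -0.0005, Gad1 by 0.03 and Dcx by 0.13. Stmn2 and Neurod1 stayed below 1 TPM and Slc17a6 was at 0 in every library. The part of these markers in the Gclm difference was not tested.

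For the Trp53 label Gclm differed by 0.28 in Trp53 KO against control and by 0.66 in double KO against Tut1 KO. Both values were above 0 and below the call threshold.

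Gclc (chr9:77754535-77794485, plus strand) encodes the catalytic subunit of the same ligase, the first and rate-limiting step of glutathione synthesis. It was at 32.9 TPM in the control, 22.6 in Tut1 KO, 34.0 in Trp53 KO and 35.2 in double KO. Tut1 KO alone stood low, and the other libraries lay close together. Gclc differed by -0.52 in Tut1 KO against control, where 10.8% of genes were as low, and by 0.05 in double KO against Trp53 KO, so the sign was not shared across the Tut1 label.

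The ratio of Gclc to Gclm transcript was 1.78 in the control and 1.5 in Trp53 KO, against 3.37 in Tut1 KO and 3.15 in double KO. The ratio was higher in both libraries with the Tut1 label than in both without it, as the bars of the ratio show. Transcript ratios say nothing here of the ratio of the proteins, which was not measured.

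**Figure D3:**
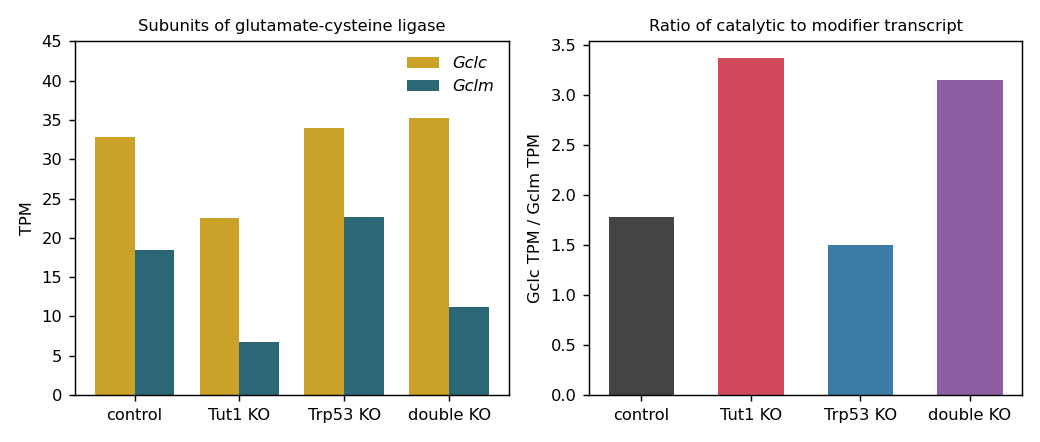
Left, the level in TPM of Gclc and Gclm, the catalytic and modifier subunits of glutamate-cysteine ligase, in the 4 libraries, and right, the ratio of the former to the latter in each, with bars from 0 and 1 library per bar. The ratio is 3.37 and 3.15 in the libraries labelled Tut1 KO and double KO and 1.78 and 1.5 in the others.

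Slc7a11 (chr3:49892526-50443614, minus strand) encodes xCT, the light chain of the exchanger that imports cystine for glutathione synthesis. It was low throughout, at 1.46 TPM in the control, 0.828 in Tut1 KO, 1.91 in Trp53 KO and 2.23 in double KO. Both libraries with the Trp53 label were above both without it. The difference was 0.25 in Trp53 KO against control and 0.82 in double KO against Tut1 KO, and 2.96% of genes were as high as the latter. That share is over genes at 10 TPM or above, which Slc7a11 did not reach. At the low levels of Slc7a11 the added constant weighs heavily. The difference in double KO against Tut1 KO was 1.33 with 0.1 added and 0.31 with 5 added. Its transcript is also GC-poor, at 40.7%, and with the trend on GC content and length removed the differences were 0.38 and 0.44.

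Slc3a2, the heavy chain that carries xCT to the membrane and also serves other carriers, was far more abundant than Slc7a11. The ratio of their TPM was 142 in the control, 254 in Tut1 KO, 147 in Trp53 KO and 109 in double KO. Slc7a11 is the divisor of this ratio, and Slc3a2 was alike in the control and Tut1 KO, at 207 and 210 TPM.

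Nfe2l2 (chr2:75675513-75704641, minus strand), the gene of Nrf2 itself, was at 79.5 TPM in the control, 73.5 in Tut1 KO, 56.1 in Trp53 KO and 58.5 in double KO. Both libraries with the Trp53 label were below both without it. The difference was -0.50 in Trp53 KO against control, where 5.59% of genes were as low, and -0.33 in double KO against Tut1 KO, where 10.8% were. With the trend on GC content and length removed these were -0.48 and -0.38. For the Tut1 label Nfe2l2 differed by -0.11 and 0.06, with signs that were not shared.

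Keap1 (chr9:21229730-21239361, minus strand), which holds Nrf2 back, was nearly level at 31.8 TPM in the control, 31.9 in Tut1 KO, 27.5 in Trp53 KO and 30.1 in double KO. Its libraries with the Trp53 label were also the lower pair, by -0.20 and -0.08, but the gap between the pairs was 0.08, and with the trend on GC content and length removed the libraries no longer separated by that label, and the latter difference turned to 0.06. The ratio of Nfe2l2 to Keap1 was 2.50, 2.31, 2.04 and 1.94 in library order. The ratio was lower in both libraries with the Trp53 label.

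Hmox1 (chr8:75093621-75100589, plus strand), the inducible haem oxygenase, was at 40.4 TPM in the control, 41.6 in Tut1 KO, 49.2 in Trp53 KO and 46.7 in double KO. It was higher with the Trp53 label, by 0.28 in Trp53 KO against control and 0.16 in double KO against Tut1 KO, where 11.4% and 41.1% of genes were as high. Macrophages are rich in Hmox1, and the microglial markers summed to 5.12 to 8.22 TPM, with Aif1, Cx3cr1, Tyrobp, C1qa, C1qb and Itgam listed at 0 in every library. The part of such cells in the Hmox1 level was not tested. The ratio of the constitutive enzyme Hmox2 to Hmox1 was 2.08 in the control and 0.858 in Tut1 KO, with 1.38 in Trp53 KO and 1.40 in double KO.

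Nqo1 (chr8:107388225-107403206, minus strand), a quinone reductase often used as a readout of Nrf2, was low at 4.64 TPM in the control, 4.49 in Tut1 KO, 4.82 in Trp53 KO and 6.54 in double KO. Double KO stood above the other libraries, which were alike. The difference was 0.37 in double KO against Trp53 KO, where 8.33% of genes were as high, and 0.46 in double KO against Tut1 KO. It was -0.04 and 0.05 in the comparisons with the control. The share is over genes at 10 TPM or above, which Nqo1 did not reach.

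Txnrd1 (chr10:82833951-82897712, plus strand), the cytosolic thioredoxin reductase and a selenoprotein, was at 133 TPM in the control, 100.4 in Tut1 KO, 109 in Trp53 KO and 125 in double KO. The control and double KO were the higher pair, which is the division of the libraries by Xist and the Y-linked transcripts, and the part of that division in the difference was not tested. Its differences were -0.41 and 0.20 for the Tut1 label and -0.29 and 0.32 for the Trp53 label. The ratio of Txn1, the substrate of the enzyme, to Txnrd1 was 8.15 in the control, 12.5 in Tut1 KO, 11.7 in Trp53 KO and 9.29 in double KO.

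Srxn1 (chr2:152105516-152111376, plus strand), sulfiredoxin, which repairs overoxidised peroxiredoxins, was at 9.59 TPM in the control, 7.58 in Tut1 KO, 8.59 in Trp53 KO and 8.43 in double KO. Both libraries with the Tut1 label were below both without it, by -0.30 and -0.02, with a gap between the pairs of 0.02. They no longer separated by that label with the trend on GC content and length removed. The ratio of peroxiredoxin 1, a substrate of sulfiredoxin, to Srxn1 was 34.7 in Tut1 KO and 40.9 to 51.0 in the other libraries.

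Gpx4 (chr10:80047166-80056439, plus strand), also a selenoprotein, was at 197 TPM in the control, 224 in Tut1 KO, 228 in Trp53 KO and 204 in double KO. The control and double KO were the lower pair, again the division by Xist and the Y-linked transcripts, which was not tested. Its transcript is rich in G and C at 60.2%, percentile 96.1, and with the trend on GC content and length removed the differences were -0.01 and -0.02 for the Tut1 label, from 0.19 and -0.16, and 0.11 and 0.09 for the Trp53 label, from 0.21 and -0.14. A pair of these signs was thus turned, and Gpx4 then separated by the Trp53 label instead. Gpx1, the cytosolic glutathione peroxidase, was of like abundance, with a Gpx4 to Gpx1 ratio of 0.829, 1.02, 1.10 and 1.22 in library order.

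With 4 libraries, the highest pair of any gene without ties falls in 1 of 6 patterns, so every one of the 10 genes separates some pair from the other, and the shares of genes over the patterns add to about 100%. By the Trp53 label, 4 of the 10 genes were above (Nqo1, Hmox1, Gclc and Slc7a11) and 2 below (Nfe2l2 and Keap1). Of the 9314 genes at 10 TPM or above 14.2% were above and 13.4% below, and of the 7 members in that set 2 and 2 were, since Nqo1 and Slc7a11 are outside it. By the Tut1 label none was above and 2 were below (Gclm and Srxn1). Of the 9314 genes 15.3% were above and 17.1% below, and of the 7 members Gclm alone was below. In the division that sets the control and double KO apart, Txnrd1 was above and Gpx4 below, beside 28.5% and 11.5% of the 9314 genes. The gap between the pairs was 0.05 for both Nqo1 and Gclc, so their place rests on small differences. With the trend on GC content and length removed, 6 genes separated by the Trp53 label, with Gpx4 in place of Keap1, Gclm alone by the Tut1 label, and Keap1, Txnrd1 and Srxn1 by the remaining division.

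The profile of Gclm over the 4 libraries was set against 8402 genes by the Euclidean distance between log2 values centred on their mean. The nearest were Snap25, a synaptic vesicle fusion protein, at a distance of 0.198, Ube2d3, a ubiquitin-conjugating enzyme, at 0.284, and Syngr2, a vesicle membrane protein, at 0.303. Snap25 was at 9.65 TPM in the control, 3.38 in Tut1 KO, 10.5 in Trp53 KO and 6.06 in double KO, and it is itself 1 of the 10 neuronal markers. Ube2d3 was at 350, 122, 323 and 187 TPM in the same order. A profile over 4 libraries is short, and many unrelated genes can share it.

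The wider pathway was described with 134 genes in 12 lists, all of which were found in the table. Of 114 list genes at 10 TPM or above in Tut1 KO against control, 2 were called higher and 3 lower, or 1.75% and 2.63%. Of 115 in double KO against Trp53 KO, 2 were called higher and none lower. For the Trp53 label, Trp53 KO against control gave 2 higher and 4 lower of 113, and double KO against Tut1 KO gave 2 higher and 5 lower of 115. The shares of higher calls lay near those of all genes. The shares of lower calls for the Trp53 label were 3.54% and 4.35%, and among these genes were Trp53 itself and its targets Cdkn1a and Trp53inp1. Without Trp53 the median of the p53 list was -0.62 in Trp53 KO against control and -0.80 in double KO against Tut1 KO, over 6 genes. Cdkn1a, the cell cycle inhibitor p21, was at 477, 605, 196 and 179 TPM in library order, and Trp53inp1 at 57.5, 51.0, 18.6 and 20.8 TPM. The plot of the list genes shows the medians of most lists near 0.

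**Figure D4:**
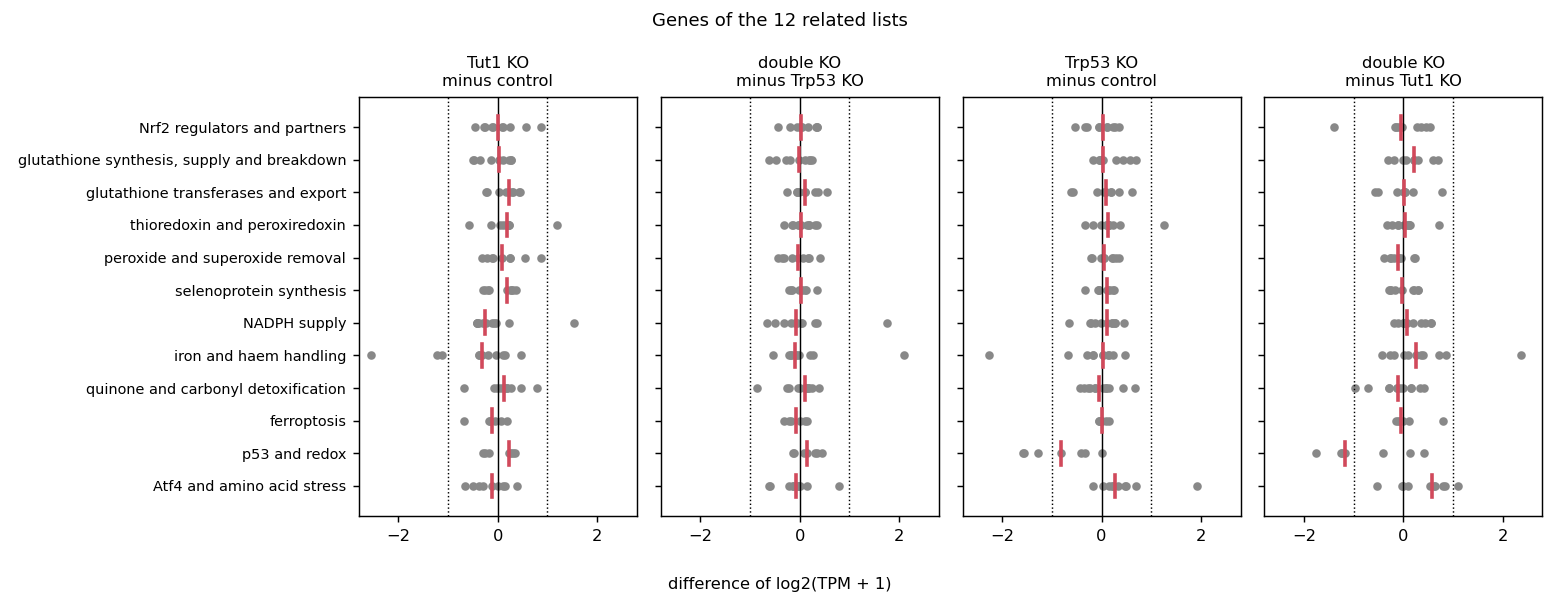
Differences of log2(TPM + 1) for the genes of the 12 related lists in the 4 comparisons, with 1 grey point per gene, a red bar at the median of each list and dotted lines at 1 either way. The median of the p53 list, which holds the deleted gene Trp53 and targets of p53 with a redox role, is at -0.82 and -1.19 for the Trp53 label, and that of the Atf4 list is at 0.28 and 0.57.

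Among the partners of Nrf2, Nfe2l1, a related factor that governs proteasome genes, was at 17.5 TPM in the control, 33.0 in Tut1 KO, 11.7 in Trp53 KO and 11.8 in double KO. Tut1 KO alone was high, and the call was made in double KO against Tut1 KO at -1.40. No other gene of the list was called in the 4 comparisons.

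No gene of the list of glutathione synthesis, supply and breakdown was called in any of the 4 comparisons. Chac1, which breaks glutathione down, was at 9.82 TPM in the control, 10.6 in Tut1 KO, 16.5 in Trp53 KO and 10.5 in double KO, with Trp53 KO alone high. Chac2, a slower relative, was lowest in Tut1 KO at 17.9 TPM and highest in double KO at 29.7. Among the transferases, Mgst1 was at 35.8 and 30.6 TPM in the control and Tut1 KO and at 55.2 and 52.9 TPM in Trp53 KO and double KO. Mgst1 was thus higher with the Trp53 label, by 0.61 and 0.77, without a call. Gstt1, a theta class transferase, was at 27.9, 38.4, 17.9 and 26.6 TPM in library order, lowest in Trp53 KO and highest in Tut1 KO.

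Prdx6, a peroxiredoxin that uses glutathione, was at 109 TPM in the control and at 249, 263 and 260 TPM in Tut1 KO, Trp53 KO and double KO. The control alone was low, and the differences from it of 1.19 in Tut1 KO and 1.27 in Trp53 KO were called. The control was the only library not given Cre, and the treatment and this library cannot be told apart. Prdx1 was at 393, 263, 430 and 430 TPM in library order, lowest in Tut1 KO as Gclc and Slc7a11 were.

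For NADPH supply, Nnt, the mitochondrial transhydrogenase, was at 6.32 TPM in the control, 20.3 in Tut1 KO, 7.06 in Trp53 KO and 26.2 in double KO. It was called higher in both comparisons of the Tut1 label, at 1.54 and 1.76. A second identifier of the same symbol shares its exons and was at 4.57 TPM in the control alone, and with both summed the differences were 0.84 and 1.76, of which the former is no longer called. G6pdx, the entry enzyme of the pentose phosphate pathway, was at 66.3, 50.6, 79.8 and 50.3 TPM, lower in both libraries with the Tut1 label and not called. Mthfd1, an enzyme of folate metabolism, was at 96.2 TPM in the control and 61.0 to 76.1 TPM elsewhere.

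No gene of the lists of peroxide and superoxide removal, selenoprotein synthesis, quinone and carbonyl detoxification, or ferroptosis was called in the 4 comparisons. Gpx7, a peroxidase of the endoplasmic reticulum, was at 18.6, 35.0, 24.0 and 32.3 TPM in library order, higher in both libraries with the Tut1 label. Aldh7a1, an aldehyde dehydrogenase, was at 56.9, 98.7, 91.1 and 49.5 TPM. It was high in the libraries with Xist and low in the other pair, the part of which was not tested. Cbr1, a carbonyl reductase, was lowest in Tut1 KO at 15.2 TPM and at 19.5 to 25.1 TPM elsewhere. Acsl4, which readies polyunsaturated fatty acids for membrane lipids and so favours ferroptosis, was at 21.1, 12.7, 20.9 and 22.8 TPM. Tut1 KO alone was low for Acsl4, as it was for Gclc.

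In iron and haem handling, Ncoa4, the receptor for ferritin breakdown, was at 35.2 TPM in the control, 5.18 in Tut1 KO, 6.52 in Trp53 KO and 31.1 in double KO. It was low in the libraries with Xist and high in those with Y-linked transcripts, which was not tested, so its differences for either label had opposite signs. Fech, which makes haem, was at 16.9, 7.19, 10.1 and 12.4 TPM in library order, and Hmox2 at 84.2, 35.7, 68.1 and 65.3 TPM. Both were called lower in Tut1 KO against control, at -1.13 and -1.21. They differed by 0.26 and -0.06 in double KO against Trp53 KO, so the Tut1 label did not share these differences. The median of this list was -0.31 in that comparison, beside -0.09 for all genes, and -0.09 in double KO against Trp53 KO, beside 0.05.

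Atf4 drives amino acid stress genes and shares targets with Nrf2, Slc7a11 among them. The median of its list was 0.28 in Trp53 KO against control, beside -0.05 for all genes, and 0.57 in double KO against Tut1 KO, beside 0.09. Atf4 itself was at 131, 131, 133 and 230 TPM in library order, with double KO alone high. Slc7a1, a carrier of cationic amino acids, was at 26.0, 16.1, 30.3 and 29.5 TPM, with Tut1 KO alone low. Nupr1, a stress response regulator, was called higher in both comparisons of the Trp53 label, from 2.23 TPM in the control to 11.2 in Trp53 KO and from 4.55 in Tut1 KO to 10.9 in double KO. Slc7a11 and Nupr1 were both higher with the Trp53 label, at levels close to or below 10 TPM.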

How the data were processed

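RNA was sequenced from 4 libraries of cultured mouse neural stem cells, 1 per group, grouped by the labels. The deposited values are TPM per gene, which the authors computed; their processing notes name Trimmomatic, HISAT2, StringTie and the build mm10 without their roles, and no annotation release is stated for this table. The labels describe a short-read kit and the design text long reads, so the platform behind the TPM is uncertain. TPM keeps no read depth, so no counting error can be given.

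Differences of log2(TPM + 1) were computed with pandas 2.3.3 and numpy 2.4.6 under Python 3.11.15 for genes at 10 TPM or above in either library and called at 1. With 1 library per group no test was run. The calculation was tested on simulated data. Coordinates and GC content came from GENCODE M21 (GRCm38), which held 55227 of 55487 gene identifiers (99.5%). The alternatives were other added constants, TPM minimums and thresholds, centring on the median, quantile normalization, rescaling without mitochondrially encoded and ribosomal protein genes, and removal of the trend on GC content and transcript length. All 10 genes were named, with those list genes past 1 in both comparisons of a label or, past 1.5-fold, furthest from 0 in their list in a comparison; Fech, Hmox2 and the ratio partners were chosen after their values were seen. The genes and lists were chosen with earlier results of these data known.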

Additional observations from a re-analysis of the deposited data

Results flagged for a closer look

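Ncoa4 moved in opposite directions between the comparisons of each label. For the Tut1 label it differed by -2.55 in Tut1 KO against control and by 2.09 in double KO against Trp53 KO, and these differ by -4.64 on the log2 scale. For the Trp53 label it differed by -2.27 and 2.38, and these too differ by -4.64, since both are made from the same 4 values. With 1 library per group the difference was not tested. The low values, 5.18 and 6.52 TPM, are those of the libraries with Xist, and the part of that division was not tested.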

How the results depend on the processing

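No paired analysis was possible because each group had 1 library, and no replicate could be left out for the same reason. Under the alternatives there were 362 differences of the 10 genes, which include those of Gclm summed with Gm6061 for the Tut1 label. Of these, 356 kept their side of the threshold, 6 passed it newly and no call was lost or reversed. Of the differences not called, 9 changed sign, each at most 0.19 in size to begin with, in Gpx4, Keap1, Hmox1, Srxn1, Nqo1 and Gclc. Slc7a11 differed by 1.33 in double KO against Tut1 KO with 0.1 added but was below 10 TPM and so was not called. Members called lower in double KO against Trp53 KO numbered 1 rather than 0 with 0.1 added, with the median of all genes set to 0, at the 1.5-fold threshold and with the trend on GC content and length removed; that gene was Gclm, at -1.01, -1.01, -0.96 and -1.04. At 1.5-fold, 2 members, Gclc at 0.62 and Gclm at 0.66, were called higher in double KO against Tut1 KO. Genes separated by the Tut1 label numbered 1 rather than 2 with the trend removed. List genes called higher in double KO against Tut1 KO numbered 1 rather than 2 with 5 added. At 1.5-fold, list genes called numbered 5 higher and 6 lower in Tut1 KO against control, 4 lower in double KO against Trp53 KO, 5 higher and 8 lower in Trp53 KO against control, and 13 higher in double KO against Tut1 KO. Over all genes, a minimum of 1 TPM gave 277 higher and 416 lower calls in Tut1 KO against control, against 134 and 236 at 10 TPM, and 276 and 288 against 127 and 161 in double KO against Trp53 KO. For the Trp53 label it gave 299 and 345 against 174 and 173, and 355 and 323 against 191 and 158. No minimum gave the same counts as a minimum of 1 TPM. At 1.5-fold the counts were 362 and 732, 312 and 396, 370 and 392, and 581 and 374 in the same order. The causes were not tested. Sequencing depth is unknown, so the precision of low values such as those of Slc7a11 cannot be given.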
